A study of Mus musculus with 2 samples.

Results

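The cells described here are yolk sac cells that carried the mRNA of Cyp26a1, the cytochrome P450 enzyme that breaks down retinoic acid. They were chosen by measured counts: among cells with 500 or more genes and at most 10% mitochondrial UMIs (unique molecular identifiers, each standing for 1 captured mRNA molecule), a cell had to hold 3 or more Cyp26a1 UMIs, 3 or more UMIs of Igfbp1, Cited1 and Apln together, less than 3% of its UMIs from 7 Hba and Hbb globin genes, and at most 1 UMI of the endothelial gene Cdh5. This gave 149 of 1740 cells, called Cyp26a1-gate cells below. The data are single-cell RNA-seq of mouse yolk sac at E8.75, and the study set ciliated cell types beside the visceral endoderm lineage, which lacks cilia. The cells came in 3 tagged samples, Ctrl1, Ctrl2 and Ctrl3, which were marked with CellPlex oligonucleotide tags, pooled and run as 1 droplet library, and the design text names 3 yolk sacs from 3 embryos. All 3 samples share the genotype Ttr-Cre/+; R26lsl-rtTA-EGFP/+, that is, Cre under the transthyretin promoter and a Cre-dependent reporter, and no mutant or treated group was analysed here. Each tagged sample held cells with Xist and cells with Y-linked transcripts, so the tagged sample, not the embryo, is the replicate. In fits without a block, p-values measure the spread between these 3 samples. In fits with the tagged sample as a block, they measure how far the difference between cell groups varies over the 3 samples.

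Retinoic acid is made from retinol by retinol and retinaldehyde dehydrogenases and acts through nuclear receptors. The CYP26 enzymes oxidise it, so cells with Cyp26a1 act as a sink, and Cyp26a1 is itself a textbook target of the retinoic acid receptors, which bind repeated hexamer motifs in DNA. Visceral endoderm is the absorptive epithelium of the yolk sac: it takes up maternal proteins through the cubilin and amnionless receptor complex and secretes plasma proteins such as transthyretin, apolipoproteins and alpha-fetoprotein. Parietal endoderm, its sister lineage, migrates along the trophoblast and lays down a thick basement membrane rich in laminin, type IV collagen and Sparc. Igfbp1 binds insulin-like growth factors, Cited1 is a transcriptional co-regulator of the CBP/p300 class, Apln encodes the peptide apelin, and Pdgfra is the receptor for platelet-derived growth factor A, a marker of primitive and parietal endoderm.

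The promoter of Cyp26a1, the gene that sets the gate, is shown with that of Igfbp1, a partner gene of the rule, to display where the letters that retinoic acid receptors are known to bind occur. Each is the RefSeq sequence of 300 bases on GRCm38.p6 around the gene's start, on the gene's strand, with capitals on matches to any of 4 hexamers, namely AGGTCA and the variants of it that read AGTTCA or GGGTCA or else GGTTCA, on either strand.
Cyp26a1, chr19:37697558-37697857, plus strand: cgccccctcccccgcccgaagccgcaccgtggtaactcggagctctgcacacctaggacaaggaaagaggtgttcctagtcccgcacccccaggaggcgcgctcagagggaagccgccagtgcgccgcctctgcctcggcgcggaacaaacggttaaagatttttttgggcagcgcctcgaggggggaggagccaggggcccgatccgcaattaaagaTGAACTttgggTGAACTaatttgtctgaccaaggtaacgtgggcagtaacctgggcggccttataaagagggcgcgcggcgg
Igfbp1, chr11:7197537-7197836, plus strand: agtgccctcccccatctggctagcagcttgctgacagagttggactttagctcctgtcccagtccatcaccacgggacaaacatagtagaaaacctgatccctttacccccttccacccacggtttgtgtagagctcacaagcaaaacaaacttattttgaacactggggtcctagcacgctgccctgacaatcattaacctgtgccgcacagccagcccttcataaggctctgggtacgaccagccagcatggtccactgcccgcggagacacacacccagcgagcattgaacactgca
The Cyp26a1 window held 2 matches, in the same orientation with 5 bases between them, spanning bases 219 to 235 of the window and starting at position -32 from the start site. The Igfbp1 window held none, nor did those of Apln and Pdgfra. Cited1, the partner gene that all chosen cells carried, has 3 listed promoters, which held 0, 1 and 2 matches and no direct repeat. Among the first listed promoter of 27025 genes, 43.4% held at least 1 such hexamer, 0.585% held a direct repeat with any of the searched spacings (1, 2 or 5 bases between) and 0.0962% one with 5 bases between, the spacing seen in Cyp26a1. These are matches of letters, and binding was not measured.

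The gate held 60 of 443 kept cells in Ctrl1 (13.5%, exact 95% binomial interval 10.5 to 17.1%), 63 of 614 in Ctrl2 (10.3%, 7.97 to 12.9%) and 26 of 683 in Ctrl3 (3.81%, 2.50 to 5.53%). The mean share was 9.20% ± 4.95 (SD, n = 3), and the interval of Ctrl3 did not overlap those of the other 2 samples, where the intervals cover counting error only. For comparison, 407 cells formed a visceral endoderm gate (Ttr, Apob and Apom together at 0.3% or more of UMIs, at most 2 Cyp26a1 UMIs, 1 to 10% mitochondrial UMIs). Another 216 formed a mesoderm gate (Hand1, Vcan and Foxf1 at 0.03% or more, Ttr, Apob and Apom under 0.3%). Of the pooled Cyp26a1-gate and visceral endoderm gate cells, the former made up 35.5% in Ctrl1, 28.8% in Ctrl2 and 15.5% in Ctrl3. The median depth was 60585 UMIs in Cyp26a1-gate cells, 55586 in the visceral endoderm gate and 35493.5 in the mesoderm gate; no barcode was shared between samples, and a doublet caller marked 7 of the 149 cells, 31 of 407 and 15 of 216.

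The limit of 3 Cyp26a1 UMIs cut through a continuous range. Exactly 3 UMIs were found in 56 of the 149 cells, 4 or 5 in 47, 6 to 11 in 42 and more than 11 in 4, with a maximum of 30. Just outside, 83 cells met every other limit with 2 Cyp26a1 UMIs. The other limits removed few cells: 3 were outside only for globins, 4 only for Cdh5 and 1 only for the partner genes.

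The markers show that the gate was in practice a gate on Cyp26a1. All 149 cells held 3 or more Cited1 UMIs, with a median of 90, but 399 of the 407 visceral endoderm gate cells and 39 of the 216 mesoderm gate cells also met the limit on the partner genes. An Igfbp1 UMI was found in 21 of the 149 cells, against 79 of 407 visceral endoderm gate cells and 2 of 216 mesoderm gate cells, and only 8 of the 149 held 3 or more. Apln was found in 101 of the 149 cells, 210 of 407 and 9 of 216, and Pdgfra in 117, 204 and 59. All 5 markers together were found in 8 cells. Igfbp1 positivity therefore does not describe most of these cells, and they are named here by Cyp26a1.

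Summed per tagged sample, Cyp26a1 stood at 93.8, 72.2 and 83.9 CPM (UMIs per 1000000 gene UMIs of the sum) in Cyp26a1-gate cells of Ctrl1, Ctrl2 and Ctrl3, against 17.7, 7.01 and 9.72 in the visceral endoderm gate and 0.387, 5.43 and 2.07 in the mesoderm gate. The gate fixed this order, so it is given with no test. Cited1 stood at 1619, 1481 and 1659 CPM in Cyp26a1-gate cells and at 1056, 1277 and 1120 CPM in the visceral endoderm gate, so the sums of the gates did not overlap, while the mesoderm gate held 39.0 to 61.2. Apln was at 59.2, 42.1 and 53.7 CPM, against 39.7, 20.0 and 14.8 in the visceral endoderm gate, and Pdgfra at 44.8, 33.2 and 44.3 CPM against 22.1, 15.2 and 15. In each tagged sample the Cyp26a1-gate cells were above the visceral endoderm gate for Cyp26a1, Cited1, Apln and Pdgfra. Cited1 and Apln are also genes of the rule and Pdgfra is a marker chosen with it, so their order too is given with no test. Igfbp1 did not follow: it stood at 29.9, 5.79 and 3.35 CPM in Cyp26a1-gate cells and at 2.28, 4.34 and 6.57 CPM in the visceral endoderm gate, with Ctrl1 high and Ctrl3 in the reverse order.

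**Figure D1:**
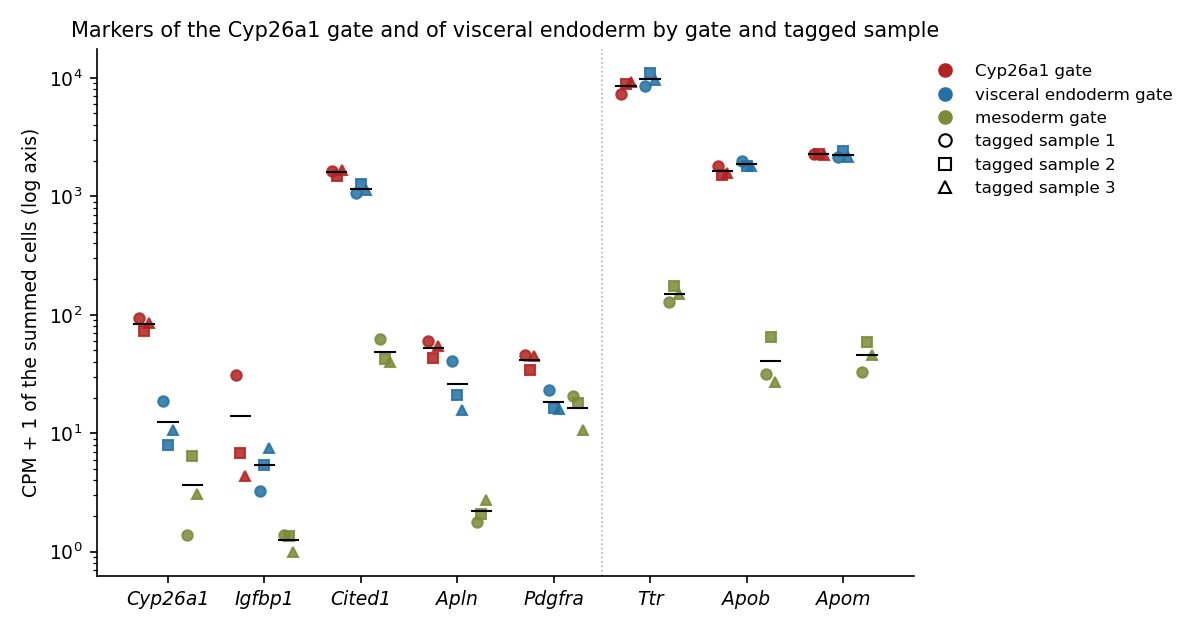
CPM + 1 on a log axis of the 5 markers and of Ttr, Apob and Apom, by gate (colour) and tagged sample (symbol), with a line at the mean. Cyp26a1 lies at 72.2 to 93.8 CPM in the Cyp26a1 gate and at most 17.7 in the other gates, whereas the Igfbp1 points of the Cyp26a1 and visceral endoderm gates overlap.

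The defining mRNAs of visceral endoderm were present in nearly all of these cells. Ttr, Apob and Apom took no part in choosing the Cyp26a1 gate, although their limits define the comparison gates, so their levels in those gates were set by the rule and are given as a scale. They made up at least 0.3% of UMIs in 138 of the 149 cells, 92.6% (56 in Ctrl1, 57 in Ctrl2 and 25 in Ctrl3), and the median over all 149 was 1.20%, with a range of 0.0139 to 3.96%. Ttr was at 7359, 8824 and 9290 CPM in Cyp26a1-gate cells and at 8484, 10934 and 9617 in the visceral endoderm gate, and 128 to 173 CPM in the mesoderm gate. Apom, an apolipoprotein, was at 2257, 2261 and 2237 CPM against 2156, 2430 and 2154. The Cyp26a1-gate sums of Apom thus lay within the range that the rule gave the visceral endoderm gate. The Ttr sums lay within that gate's Ttr range in Ctrl2 and Ctrl3 and below it in Ctrl1. As a description of rank likeness over 10480 genes, Spearman's rho between Cyp26a1-gate and visceral endoderm gate sums was 0.974 to 0.988 and 0.977 to 0.983 among the Cyp26a1-gate sums themselves, against 0.738 to 0.772 with mesoderm gate sums. These rho are across genes, and sums of 1 tagged sample share a library.

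**Figure D2:**
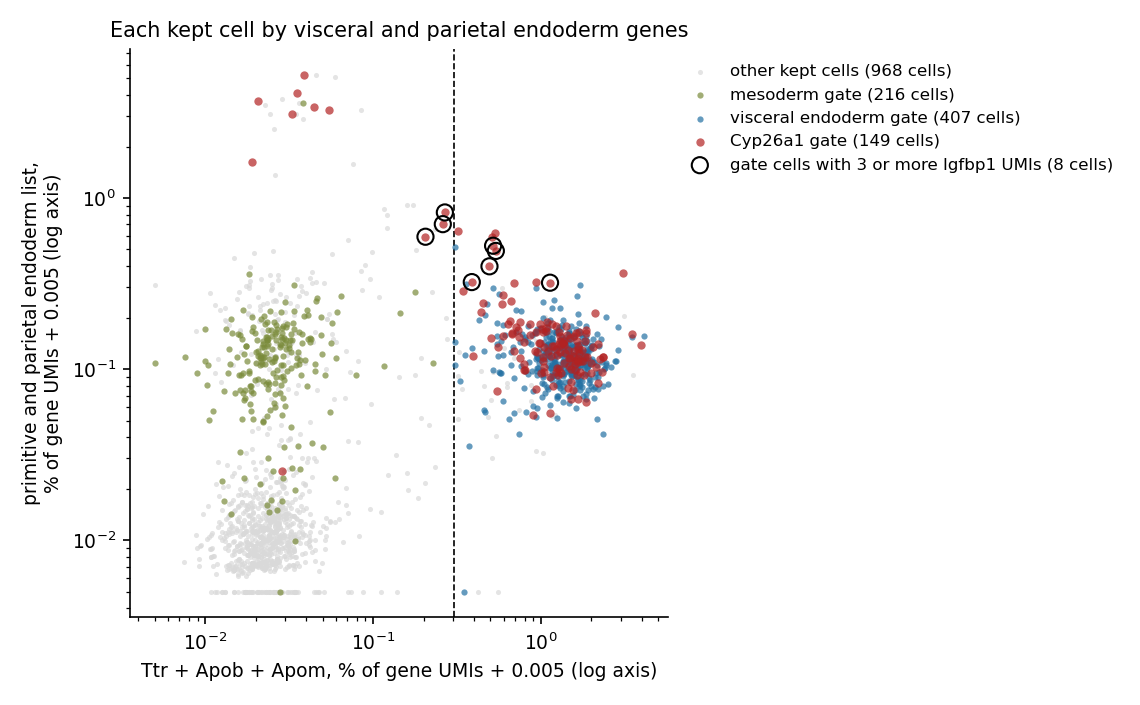
Each point is 1 kept cell, with its percentage of UMIs from Ttr, Apob and Apom (x) and from the primitive and parietal endoderm list (y), both + 0.005 on log axes, coloured by gate, with rings on the 8 Cyp26a1-gate cells of 3 or more Igfbp1 UMIs and a dashed line at 0.3%. Of the 149 Cyp26a1-gate cells, 138 lie at 0.3% or more on the endoderm share, among the visceral endoderm gate cells, and 7 lie apart at 1% or more on the parietal share.

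Marker lists of other cell types placed the cells next to visceral endoderm. The summed level of 16 visceral endoderm markers outside the gate rules was 21945 CPM in Cyp26a1-gate cells (19606 to 24317 over the samples), 25227 CPM (21342 to 28971) in the visceral endoderm gate and 641 CPM (570 to 760) in the mesoderm gate. Primitive and parietal endoderm markers were at 2350 CPM (1581 to 3077), against 1128 CPM (1106 to 1147) and 1293 CPM (901 to 1923), with each Cyp26a1-gate sum above all 3 sums of the visceral endoderm gate. Extraembryonic mesoderm markers averaged 219 CPM in Cyp26a1-gate cells, 248 in the visceral endoderm gate and 2341 in the mesoderm gate. Endothelial markers averaged 105, 93.0 and 171 CPM and erythroid markers 48.3, 78.7 and 160 CPM. Definitive endoderm and gut markers averaged 3871, 3325 and 111 CPM.

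**Figure D3:**
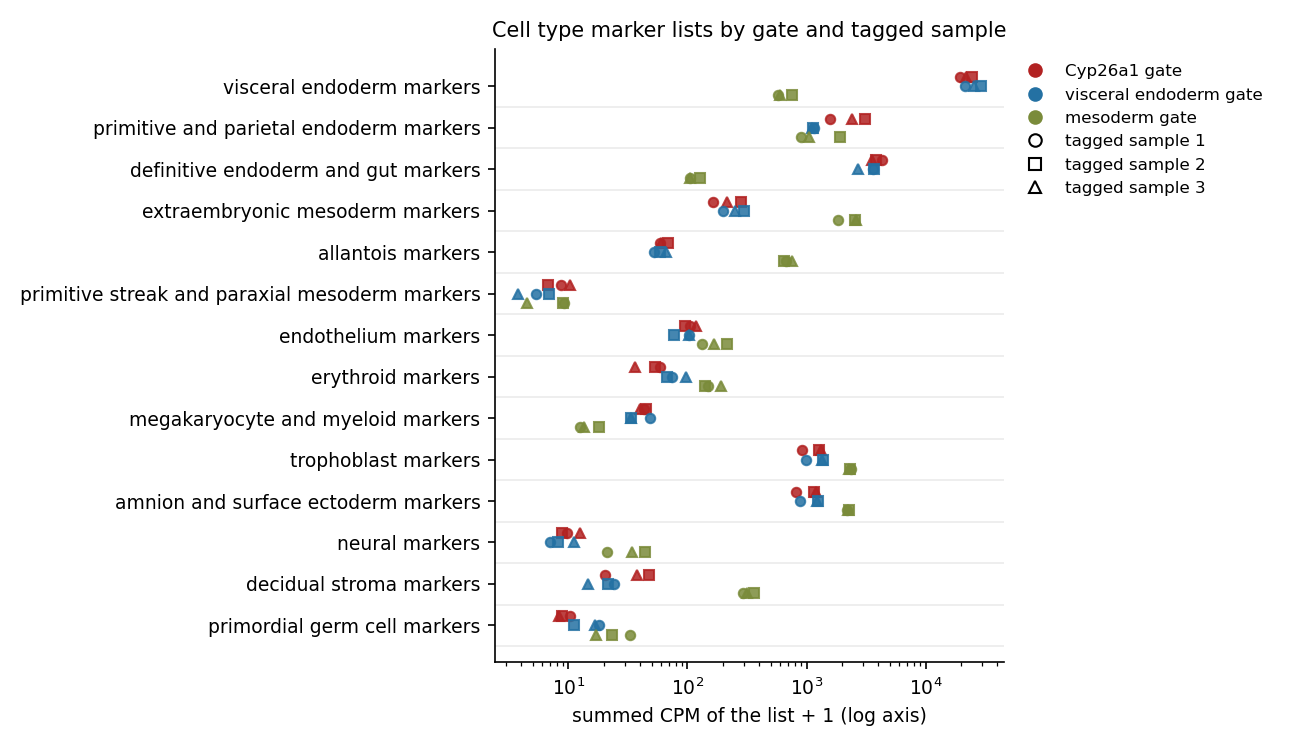
Summed CPM + 1 of each of 14 marker lists on a log axis, by gate (colour) and tagged sample (symbol). Visceral endoderm markers lie at 19606 to 24317 CPM in the Cyp26a1 gate and 570 to 760 in the mesoderm gate, and parietal markers spread from 1581 to 3077 CPM in the Cyp26a1 gate.

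The spread of the parietal list came from a small set of cells. Of the 149 cells, 11 had Ttr, Apob and Apom under 0.3% of UMIs, a division made after the values were seen. In 7 of these (6 in Ctrl2, 1 in Ctrl3, 0 in Ctrl1) parietal endoderm markers took 1.63 to 5.20% of UMIs. The 7 were set apart by a share of 1% or more on this list. Col4a1, Sparc, Lama1, Nid1, Fst, Srgn, Thbd and Stra6 are on it, so their counts are partly given by that choice. Each of the 7 held 204 to 610 UMIs of Col4a1 (type IV collagen), 245 to 557 of Sparc, 39 to 155 of Lama1 (laminin alpha 1), 20 to 84 of Nid1 (nidogen), 24 to 135 of Fst (follistatin, which binds activins) and 8 to 87 of Srgn (the serglycin core protein). They held 1 to 11 UMIs of Thbd (thrombomodulin) and 2 to 8 of Stra6, the retinol transporter, 0 of Igfbp1 and Apln, only 3 to 15 of Cited1, and 0 to 3 of Afp. No Cyp26a1-gate cell with Ttr, Apob and Apom at 0.3% or more, and no visceral endoderm gate cell, reached 1% on the parietal list. In all kept cells 20 did (0 in Ctrl1, 18 in Ctrl2, 2 in Ctrl3), of which 13 were outside the Cyp26a1 gate: 3 with 0 Cyp26a1 UMIs, 6 with 1, 3 with 2 and 1 with 9. All 20 held Ttr, Apob and Apom at 0.0139 to 0.0801% of UMIs, so the limit of 0.3% by itself kept them out of both groups. Thbd and Stra6 were at 0 UMIs in the 138 cells with visceral endoderm mRNAs.

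Of the remaining 4 low cells, all from Ctrl1, 3 held 10 to 28 Igfbp1 UMIs, 16 to 28 of the endocytic receptor gene Cubn and 13 to 27 of Fst, with Ttr, Apob and Apom at 0.200 to 0.263%. The last had neither pattern. The doublet caller marked 0 of the 11.

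The cells that did carry Igfbp1 fell into unlike sets. In all kept cells 16 had 3 or more Igfbp1 UMIs (6, 5 and 5 by sample), and 8 of them were in the Cyp26a1 gate. Those 8 held 3 to 33 Igfbp1 UMIs, 60 to 405 of Cited1 (median 262), 2 to 31 of Fst, 1 to 15 of Sox17 and 3 to 10 of Pdgfra, with 1 to 25 UMIs of Afp (alpha-fetoprotein, median 3.5) and 0 of Apln. The 8 outside held 3 to 6 Igfbp1 UMIs, 70 to 145 of Cited1 (median 93.5), 0 or 1 of Fst and of Pdgfra, and 79 to 591 of Afp (median 300.5). The Afp and Fst ranges of these sets of 8 did not overlap. They were divided on Cyp26a1 after the counts were seen and are not tested.

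Against the visceral endoderm gate few genes differed, and 7 of 16 tested primitive and parietal endoderm markers rose in Cyp26a1-gate cells while 9 did not pass. The visceral endoderm gate had a lower limit on Ttr, Apob and Apom, and the Cyp26a1 gate had none. All kept cells high on the parietal list lay under that limit. They could enter the Cyp26a1 gate but not the visceral endoderm gate. Rises of genes that such cells carry at high levels, parietal markers among them, were thus partly set by the gates. By edgeR's quasi-likelihood test on summed UMIs with Benjamini-Hochberg adjustment, 18 of 10062 genes were higher (0.179% of genes tested) and 1 was lower (0.00994%), at an adjusted p of 0.05, and 568 had an unadjusted p under 0.05. The median log2 difference of the parietal list was 1.10, against -0.00 over all genes tested. Its higher genes were Lama1, Col4a2, Sparc, Fst, Srgn and the transcription factors Gata6 and Sox17. Fst was at 36.3, 121 and 91.9 CPM against 6.85, 7.41 and 2.78, a log2 difference of 3.85 ± 0.42 (SE, adjusted p = 0.00345). Lama1 was at 29.0, 117 and 67.8 CPM against 13.5, 11.5 and 14.3 (2.47 ± 0.37, adjusted p = 0.0246). For Fst and Lama1 the sums did not overlap, and Ctrl1, the sample with no cell high on the parietal list, was the lowest. Sox17, an endoderm transcription factor on both the parietal and visceral lists, was at 38.6, 34.1 and 36.2 CPM against 16, 16.1 and 18.1 (1.10 ± 0.12, adjusted p = 0.00345). Col4a2 and Sparc rose by 1.10 and 0.88 on the log2 scale, Srgn by 3.25 and Gata6 by 0.83.

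The other 11 higher genes included the collagen lysyl hydroxylase Plod2 (1.66 ± 0.17, adjusted p = 0.00345), the hypoxia-responsive transcription factor Epas1 (2.23 ± 0.25, adjusted p = 0.00345), the fatty acid binding protein gene Fabp3 (2.06 ± 0.31, adjusted p = 0.0246) and Myl3, a myosin light chain (2.67 ± 0.31, adjusted p = 0.00361), all by edgeR with Benjamini-Hochberg adjustment. Bend5 rose by 0.63 and the adhesion protein gene Flrt3 by 0.99 on the log2 scale. The rest were the adenosine receptor gene Adora1, Pmepa1, Pga5, the heparan sulfate sulfotransferase gene Hs3st1 and the chromatin remodelling subunit gene Smarcd3, at 1.84 to 4.29. The lower gene was Mef2c, a muscle and endothelial transcription factor, at 0.282, 0.223 and 0 CPM against 3.51, 2.37 and 4.80; the Cyp26a1 gate, but not the visceral endoderm gate, was limited on Cdh5 and globins, and with those limits on all gates Mef2c stood at -3.86 on the log2 scale (adjusted p = 0.0471). The number of calls depended on single samples. Without Ctrl3 no gene was called (309 at an unadjusted p under 0.05), without Ctrl2 4 were higher and 0 lower, and without Ctrl1 46 were higher and 12 lower.

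**Figure D4:**
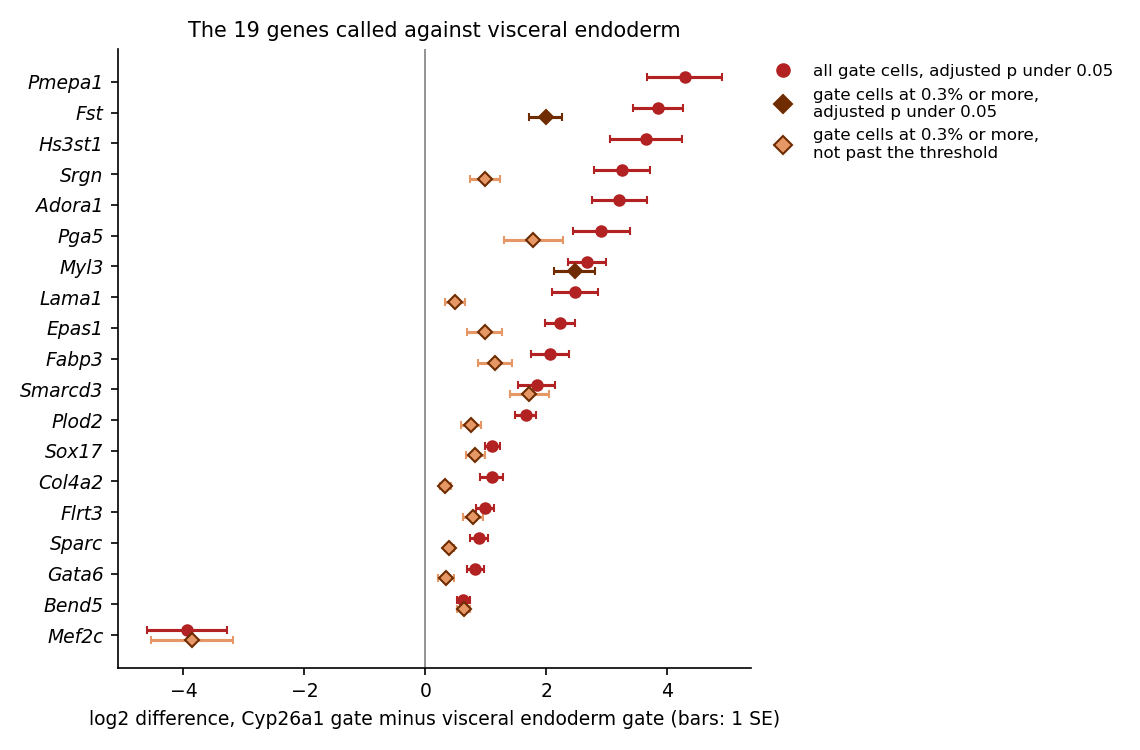
Log2 difference from the visceral endoderm gate, with bars of 1 SE, of the 19 called genes: circles for all Cyp26a1-gate cells, diamonds for the 138 with Ttr, Apob and Apom at 0.3% or more (dark where the adjusted p passed; no diamond where a gene was not tested). Fst goes from 3.85 to 1.99 and Lama1 from 2.47 to 0.48, while Bend5 is at 0.63 in both.

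Without the 11 low cells fewer genes passed in the fit without a block, though several kept their difference. With only the 138 cells at 0.3% or more, 2 of 9977 genes were called (0.0200%), Fst and Myl3, and 545 had an unadjusted p under 0.05 by edgeR. Fst was then at 20.3, 24.2 and 23.5 CPM (log2 difference 1.99, adjusted p = 0.0421) and Myl3 at 11.8, 10.3 and 21.4 CPM, while Lama1 was at 17.4, 16.7 and 22.8 CPM, next to 11.5 to 14.3 in the visceral endoderm gate. Bend5 kept a log2 difference of 0.63 (adjusted p = 0.122) and Smarcd3 stood at 1.72 (adjusted p = 0.182). Taking out also the cells with 3 or more Igfbp1 UMIs left 0 calls of 9935, with 523 at an unadjusted p under 0.05. The 11 cells by themselves differed from the visceral endoderm gate in 373 higher and 611 lower of 9162 genes (4.07% and 6.67%). These cells were picked for low Ttr, Apob and Apom and that gate for high, which partly set this difference in advance. They numbered 4, 6 and 1 by tagged sample and were of unlike kinds, so these counts are a description.

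The gates come from the same tagged samples, and a fit with the tagged sample as a block called more genes: 97 higher (0.964%) and 83 lower (0.825%), all 19 genes of the fit without the block among them. With only the 138 cells the blocked fit called 73 higher (0.732%) and 86 lower (0.862%), and 114 genes were shared, 63.3% of the former calls and 71.7% of the latter. Of the 19 genes called without the block in all cells, 13 (68.4%) were called in the same direction in this fit. In the blocked fit without the 11 cells 8 of 15 parietal markers were still higher (Gata4, Sox17, Col4a1, Col4a2, Sparc, Fst, Pth1r and Srgn), with a list median of 0.35, and Fabp3 was higher by 1.27 and Bend5 by 0.61 on the log2 scale. Lama1 (0.52, adjusted p = 0.0939), Gata6 (0.33, adjusted p = 0.253) and Epas1 (0.93, adjusted p = 0.144) did not pass there.

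Genes of secreted plasma proteins fell in the blocked fit. None of 16 passed without the block (edgeR, list median -0.36), and 8 were lower with it, namely Afp, Trf (transferrin), Serpinf2, the apolipoprotein genes Apoa2 and Apoa4 and the fibrinogen genes Fga, Fgb and Fgg. Over all genes tested, 0.00994% were lower without the block and 0.825% with it. Afp was at 769, 1721 and 1557 CPM in Cyp26a1-gate cells and at 1336, 2838 and 2640 in the visceral endoderm gate. The Afp sums overlapped over all samples, but in each tagged sample the Cyp26a1-gate cells were lower. The log2 difference of Afp was -0.77 ± 0.29 without the block (adjusted p = 0.757) and -0.77 ± 0.05 with it (adjusted p = 3.58e-11). Spp2, a secreted phosphoprotein on the visceral endoderm list, was at 163, 281 and 199 CPM against 240, 484 and 392, a blocked difference of -0.78 ± 0.07 (adjusted p = 1.38e-08). Trf was at 209, 276 and 267 CPM against 225, 423 and 422 (blocked -0.47 ± 0.08, adjusted p = 0.000416). Fgb was at 282, 296 and 319 CPM against 360, 391 and 386, sums that did not overlap, with a difference of -0.36 ± 0.08 without the block (adjusted p = 0.149) and an adjusted p of 0.000376 with it. With only the 138 cells, 7 plasma protein genes were lower in the blocked fit, with Afp at -0.70, where 0.862% of all genes tested were lower.

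Genes of the uptake machinery gave no call with all cells, 0 of 12 endocytic genes in either fit. Over all genes tested, 0.179% were higher and 0.00994% lower without the block, and 0.964% and 0.825% with it. A count of 0 of 12 is thus what the background gives. Cubn stood at 853, 692 and 698 CPM against 805, 705 and 654 (log2 difference 0.05 ± 0.09), and Amn, which anchors cubilin at the membrane, at 648, 620 and 619 CPM against 595, 636 and 634 (0.01 ± 0.07). With only the 138 cells the clathrin adaptor gene Dab2 was higher by 0.24 in the blocked fit (adjusted p = 0.0206). Erythroid marker mRNA was lower in the Cyp26a1 gate (34.9 to 57.7 CPM against 66.5 to 95.9), as the heme synthesis gene Alas2 was in the blocked fit (-0.86, adjusted p = 0.0423). Cells of the Cyp26a1 gate were limited on globins and those of the visceral endoderm gate were not, and the part of this in the other differences was not tested. With both comparison gates held to those limits, 13 genes were higher and 1 lower in the fit without the block.

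Within cells that carried visceral endoderm mRNAs, levels of several of these genes differed between the classes with the fewest and the most Cyp26a1 UMIs. Mean Afp and Trf fell and mean Fst rose from class to class, though not in every tagged sample. The means of Spp2, Fabp3 and Sox17 kept no steady order in between. Cells were divided into those of the visceral endoderm gate with 0 Cyp26a1 UMIs (234 cells) or with 1 or 2 (173 cells), and Cyp26a1-gate cells with visceral endoderm mRNAs and 3 (51 cells), 4 or 5 (45 cells) or 6 or more (42 cells). Mean Afp over the tagged samples was 2547 ± 825, 1923 ± 693, 1826 ± 885, 1440 ± 460 and 895 ± 343 CPM in this order (SD, n = 3). Spp2 averaged 428, 300, 252, 278 and 123 CPM, and Trf 382, 323, 302, 280 and 191 CPM. Fst averaged 4.84, 6.75, 18.7, 21.4 and 29.6 CPM, Fabp3 35.9, 42.0, 78.5, 65.2 and 141 CPM, and Sox17 15, 18.7, 21.9, 19.4 and 46.9 CPM. Afp, Spp2 and Trf were lowest at 6 or more Cyp26a1 UMIs in each tagged sample. Fst was highest there in Ctrl1 and Ctrl2 but highest at 3 UMIs in Ctrl3, and mean Cubn, at 711, 729, 711, 840 and 782 CPM, did not follow the count. This is a description with no test: deeper cells reach a higher count more easily, and the top class held 20, 15 and 7 cells by sample. Much of its Fst and Fabp3 came from few cells, those with 3 or more Igfbp1 UMIs. In Ctrl1 these held 2 and 28 UMIs of Fst and 14 and 53 of Fabp3. In Ctrl2 they held 8 and 31 of Fst and 78 and 48 of Fabp3.

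**Figure D5:**
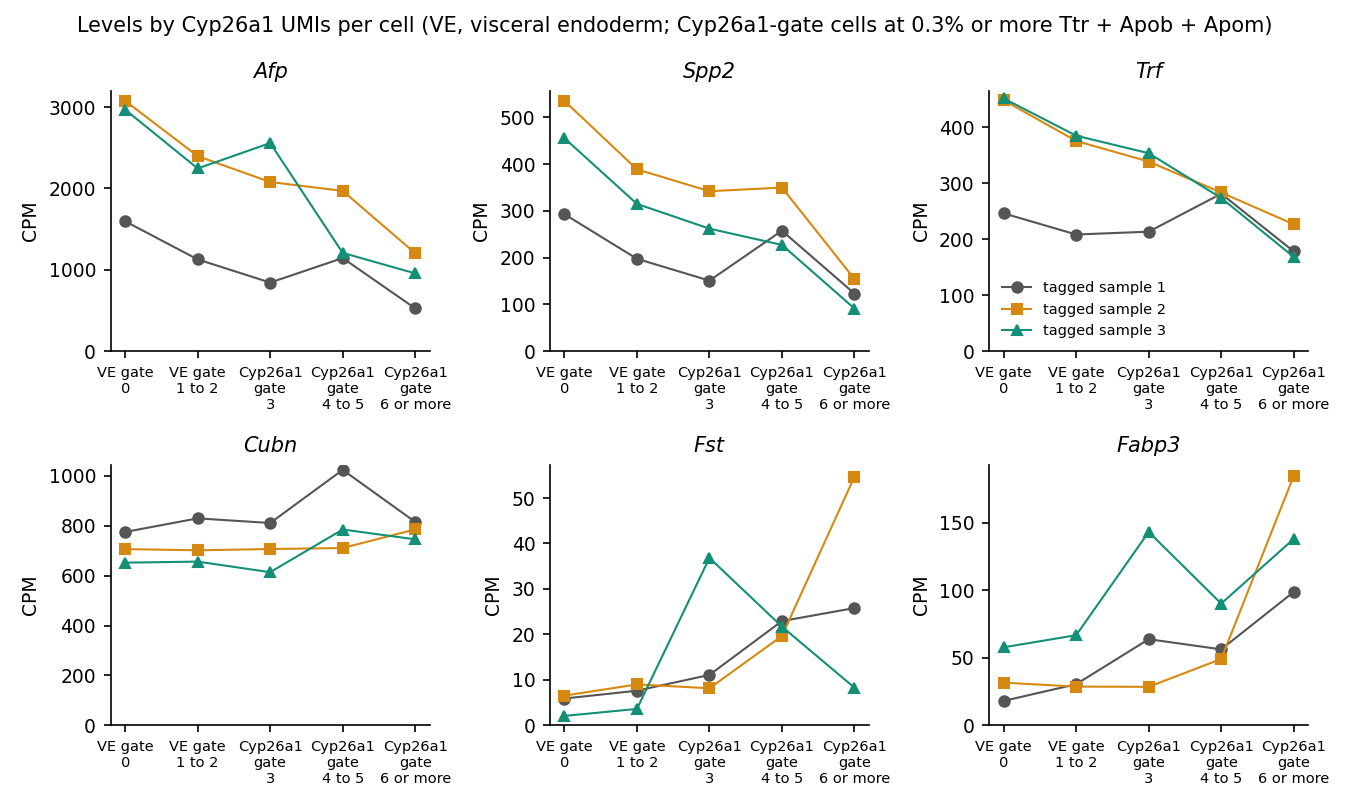
CPM of Afp, Spp2, Trf, Cubn, Fst and Fabp3 (y, from 0) in visceral endoderm cells divided by their Cyp26a1 UMI count (x), with 1 line per tagged sample. Afp is lowest at 6 or more UMIs in all 3 samples, and the Fst line of Ctrl3 does not follow those of Ctrl1 and Ctrl2.

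The other retinoic acid genes were then counted against visceral endoderm, where few genes of any kind were called (0.179% higher and 0.00994% lower), so that a count of 0 is what the background gives. Of 4 genes of retinoic acid synthesis, 1 other gene of retinoid breakdown and storage, 7 of retinoid transport and 7 of retinoic acid receptors and co-regulators, 0 passed without the block. The retinol dehydrogenase gene Rdh10 stood at 38.0, 33.4 and 34.2 CPM against 35.5, 32.4 and 29.9 (0.11 ± 0.12, adjusted p = 0.984 by edgeR). Aldh1a2, which encodes the enzyme that makes retinoic acid from retinaldehyde in mesoderm, had 0 UMIs in Cyp26a1-gate cells, as had Cyp26b1, and Cyp26c1 had UMIs in Ctrl1 only (0.282 CPM). Rarb, a retinoic acid receptor gene that is itself induced by retinoic acid, was at 0, 0.446 and 0 CPM, near the visceral endoderm gate (0 to 0.379). In the blocked fit the retinol carrier Rbp4 (-0.20, adjusted p = 0.0148) and Fabp5 (-0.71, adjusted p = 5.62e-05) fell.

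Insulin-like growth factor genes and the partners of apelin and PDGF receptor alpha gave few calls, read against the same background. Of 13 IGF genes 0 passed, and Grb10, an adaptor that restrains IGF signalling, was lower only with the block (-0.58, adjusted p = 0.0108). Of 20 tested hypoxia and glucose transport genes 1 rose, Epas1. The prolyl hydroxylase gene P4ha1 was higher by 0.53 and the glucose transporter gene Slc2a1 lower, at -0.27, with the block (edgeR adjusted p = 0.000416 and 0.0178). Of 24 intraflagellar transport genes, which build cilia, 0 passed: Ift74 was at 8.45, 8.47 and 12.1 CPM against 8.26, 8.00 and 12.5.

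Against the mesoderm gate, genes of the endodermal epithelium rose and genes of mesenchyme fell. Of 9814 genes 2896 were higher (29.5%) and 3059 lower (31.2%) by edgeR with Benjamini-Hochberg adjustment. The comparison gates were chosen on endoderm and mesoderm genes, which partly sets these directions, and both comparisons share the Cyp26a1-gate sums. All 16 tested visceral endoderm markers rose (median 5.02 against -0.04 over all genes tested), as did all 14 plasma protein genes and all 12 endocytic genes. Rbp4 was higher by 5.85 ± 0.11, Cubn by 5.75 ± 0.17 and Amn by 5.51 ± 0.14 on the log2 scale, and the amino acid transporter gene Slc7a9 by 6.41 ± 0.25. The glucose transporter genes split: Slc2a3 rose (2615, 2727 and 2875 CPM against 307, 375 and 199) and Slc2a1 fell (167, 234 and 233 CPM against 784, 885 and 932).

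Mesenchymal genes were mostly lower. Of 13 extraembryonic mesoderm markers 12 fell (median -5.18), as did 17 of 19 mesenchyme genes and all 12 Hox genes. Over all genes tested 31.2% were lower. Snai2, a transcription factor of mesenchymal cells, was at 0.282, 1.78 and 0 CPM against 93.7, 121 and 102, and the cadherin gene Cdh11 at 0, 1.11 and 1.34 CPM against 93.3, 78.5 and 92.4. Bmp4 was at 2.54, 1.34 and 2.01 CPM against 127, 113 and 121. The gates did not overlap for these 3 genes. Other genes of these lists were well detected, as the matrix gene Fn1, which averaged 138 CPM in the Cyp26a1 gate.

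Several ligands and receptors were divided between the gates. Ihh, the Indian hedgehog ligand, was at 35.8, 28.1 and 39.6 CPM against 0, 0.723 and 0.345, while Ptch1, the hedgehog receptor and target, was at 13.2, 18.5 and 8.05 CPM against 282, 317 and 365. Of 12 hedgehog genes Ihh rose and 9 fell, where 29.5% of all genes tested were higher and 31.2% lower. The apelin receptor gene Aplnr was at 0.563, 0.668 and 0 CPM against 31.7, 32.2 and 46.2, the reverse of Apln, which was at 0.774 to 1.72 CPM in the mesoderm gate. The PDGF receptor gene Pdgfrb fell likewise, (log2 difference -5.70), as did the ligand gene Pdgfa (-3.48). Of 25 intraflagellar transport genes 21 fell and 0 rose (median -1.27), Ift74 from a mean of 63.6 CPM in mesoderm to 9.67 CPM.

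Against a background of 29.5% of genes higher and 31.2% lower, all 4 retinoic acid synthesis genes tested rose against mesoderm, Rdh10 by 2.59 ± 0.18. So did the reductase gene Dhrs3 of the breakdown and storage list (0.97 ± 0.29, adjusted p = 0.0106 by edgeR) and the binding protein gene Crabp2 (4.15 ± 0.45). The synthesis list holds 11 genes, of which 4 had 0 UMIs in Cyp26a1-gate cells. Aldh1a2 had 0 UMIs there, so these rises do not show that the cells make retinoic acid. The retinoic acid receptor gene Rarg fell, at 0.845, 0 and 0 CPM against 26.3, 20.3 and 20.7 (log2 difference -5.84 ± 0.49). Of 13 IGF genes 3 rose, a share near the background, and 8 fell, among them Igfbp2 (5.07, 11.6 and 4.03 CPM against 410, 544 and 470) and Igf1r, which fell by 4.04 on the log2 scale. Of the 18 genes higher against visceral endoderm, 9 were also higher against mesoderm: Fst, Lama1, Col4a2, Sparc, Bend5, Sox17, Srgn, Hs3st1 and Pmepa1. Epas1 and Plod2 were lower against mesoderm, 5 did not pass and 2 were not tested. For Bend5 the difference was 2.68 ± 0.14 (adjusted p = 1.45e-08), and its sums lay above both gates in every tagged sample (82.0, 70.4 and 87.9 CPM, against 47.4 to 54.0 and 12.8 to 14.1). Lama1 turned to -0.48 against mesoderm with only the 138 cells, and Ctrl2 of the mesoderm gate, which held 1 cell high on the parietal list, was its highest sample there (53.9 CPM against 12.8 and 17.6).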

How the data were processed

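The files hold UMI counts per gene and cell, made by the authors with Cell Ranger 6.1.2 per the file headers, on GRCm38 (mm10) per the submitters' processing notes; they were deposited as 1 filtered matrix per tagged sample, 1817 cells in all. Cells with 500 or more genes and at most 10% mitochondrial UMIs were kept (1740). Counts were summed per tagged sample and gate (1490397 to 4487763 UMIs for the Cyp26a1 gate) and tested with edgeR 4.0.16 (quasi-likelihood, TMM, filterByExpr, two-sided, Benjamini-Hochberg), leaving out gate, marker and mitochondrial genes. The authors' cell type annotation was not used here. Doublets were called with Scrublet (scanpy 1.11.5) and kept. DESeq2 1.42.0, other scalings, filters and gates were alternatives. Pairing by tagged sample was checked on deviations of log2 CPM from each gate's mean, correlated across genes between gates. Same-numbered samples gave 0.30, 0.19 and 0.16 for visceral endoderm, against at most -0.14, -0.04 and 0.04 for other numbers. For mesoderm they gave 0.13, 0.14 and -0.01, against at most -0.01, 0.03 and 0.01, so Ctrl3 showed no pairing there. On simulated data for the visceral endoderm comparison (9909 genes) the test recovered 72.4% of 2-fold and 99.0% of 4-fold changes, with 12 false calls. The simulated counts held no effect of tagged sample, so these rates need not hold for the real sums. The cells, gates and 36 gene lists were chosen with earlier results of these data known. Genes were named if they were gate or marker genes, among the 3 smallest p of a list in a comparison, among the 10 largest differences at 50 CPM or more in each direction, or called in both comparisons; other genes were named after their values were seen.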

Additional observations from a re-analysis of the deposited data

How the results depend on the processing

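The 19 genes called against visceral endoderm became 180 with the replicate block, 194 without the low-count filter, 4 with all 3 gates in 1 fit, 5 with a Cyp26a1 minimum of 2 UMIs and 81 with a gate on shares of UMIs. They became 984 with only the 11 cells under 0.3%, 2 with only the 138 others (159 with the block), and 0 when cells with 3 or more Igfbp1 UMIs were also left out (133 with the block), the settings with the 138 cells being chosen after seeing the data. Leaving out 1 tagged sample gave 0 to 58. The mesoderm count of 5955 became 457 with only the 11 cells, fewer cells by construction, and 4963 to 5773 with 1 tagged sample left out. The mean share of 9.20% became 14.5% and 4.14% with Cyp26a1 minima of 2 and 5 UMIs, 3.40% with the gate on shares, 0.676% for the 11 cells, and 7.03 to 11.9% with 1 tagged sample left out. Directions turned for Cubn (-2.28), Amn (-3.08), Lgmn (-2.18) and Spink1 (-2.47) against visceral endoderm with only the 11 cells. Lama1 against mesoderm turned to -0.48, or -0.44 with the block, without the 11 cells, and to -0.62 and -0.59 (with the block) when Igfbp1-high cells were also left out. Where construction does not give it, the cause was not tested. Over all genes tested against mesoderm the median difference was -0.04, -0.18 when scaled by library size and -0.12 by upper quartile, and 48.6%, 39.1% and 42.8% of calls were then higher. A visceral endoderm gate without Cyp26a1 or partner UMIs held 7 cells and was not run.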
